A study of Rattus norvegicus with 15 samples.

Results

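The genes described here are 64 of the 22250 genes in a table of rat lung RNA: the C-type lectins whose symbols start with Clec and a number, and the Siglec, Lilr, Pir, Fcgr, Fcer, Trem, Treml and Cd300 families. The rule goes by symbol and uses no measured value, and it leaves out Trem2; the families were chosen with earlier results of these data known. The 31 Clec genes were the most numerous, followed by 7 Cd300, 6 Lilr and 6 Siglec genes, 5 Fcgr genes, 5 Trem and Treml genes, 3 Fcer genes and Pirb. Of the 64, 52 reached 1 FPKM in at least 5 of the 15 libraries and were tested among the 13457 genes that did so. FPKM (fragments per kilobase of transcript and per unit of sequencing depth) corrects for gene length, so levels of different genes can be set side by side.

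The libraries came from whole lung of wild-type (WT) rats, 5 in each of 3 groups. SJY rats had received lipopolysaccharide (LPS, a component of the bacterial outer membrane) into the trachea together with Sang Ju Yin, a herbal formula given by mouth. ALI rats, the model of acute lung injury, had received the LPS alone, and control rats were normal. The labels name no strain, dose, time after LPS, sham instillation or vehicle for the formula, and do not say whether each library is 1 animal, so a p-value here reflects how much these libraries varied and not necessarily how much animals vary.

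Cells of the innate immune system carry these receptors in activating and inhibitory versions that often sit side by side in the genome and bind similar ligands. Many activating members have short tails and signal through partner chains with an activation motif, the Fc receptor gamma chain (Fcer1g) and DAP12 (Tyrobp), which engage the kinase Syk. Inhibitory members carry their own inhibitory motif and recruit phosphatases such as SHP-1 (Ptpn6). In the lung they are found mainly on neutrophils, monocytes, macrophages and dendritic cells, while a few are products of endothelium, platelets or B cells.

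ALI library 1 stood apart, with 37.7% of its summed FPKM on 13 mitochondrial genes against 5.19% to 17.1% in the other 14 libraries. The 64 genes held 0.521% to 0.600% of the summed FPKM in SJY lungs, 0.361% to 0.537% in ALI lungs and 0.286% to 0.374% in control lungs. All 11 lung epithelial markers checked were expressed in every library, among them the surfactant protein gene Sftpc at 10385 to 13774 FPKM in SJY lungs, 2476 to 12347 FPKM in ALI lungs and 9156 to 15268 FPKM in control lungs. The summed FPKM of 20 neutrophil markers was 8507 to 15034 in SJY lungs, 2295 to 23363 in ALI lungs and 180.5 to 276 in control lungs, with the ALI maximum in library 1 and the other ALI libraries at up to 7419. The sum of 14 monocyte and macrophage markers without Lyz2 was 904 to 1313 in SJY lungs, 765 to 1551 in ALI lungs and 382 to 554 in control lungs. With Lyz2, which made up most of the sum, the groups overlapped. The 15 markers then summed to 11919 to 16575 in SJY lungs, 5153 to 18777 in ALI lungs and 12770 to 18746 in control lungs. In whole tissue, more cells of a type and more RNA per cell cannot be told apart, and the part of these shifts in the receptor results below was not tested.

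After LPS, more of the receptor genes rose than fell. In ALI against control lungs, 20 of the 52 tested members (38.5%) were higher and 4 (7.69%) were lower at an adjusted p under 0.05, where 8.02% of all tested genes were higher and 9.56% were lower. Leaving out 1 library gave 19 to 22 members higher and 1 to 4 lower, where 6.12% to 9.3% of all tested genes were higher and 5.33% to 12.9% lower. Clec12b alone was called lower when SJY 3, SJY 4, SJY 5, SJY 6, control 6 or control 8 was left out. The median log2 change was 0.41 over the 52 members and -0.12 over all tested genes. In SJY against control lungs, 24 members (46.2%) were higher and 4 (7.69%) were lower, where 14.6% of all tested genes were higher and 18.1% were lower, and the medians were 0.65 and -0.11. Clec4b2 and Pirb reached 1 FPKM in none of the control libraries and so passed the filter only through their levels after LPS. These 2 comparisons share their control libraries.

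**Figure D1:**
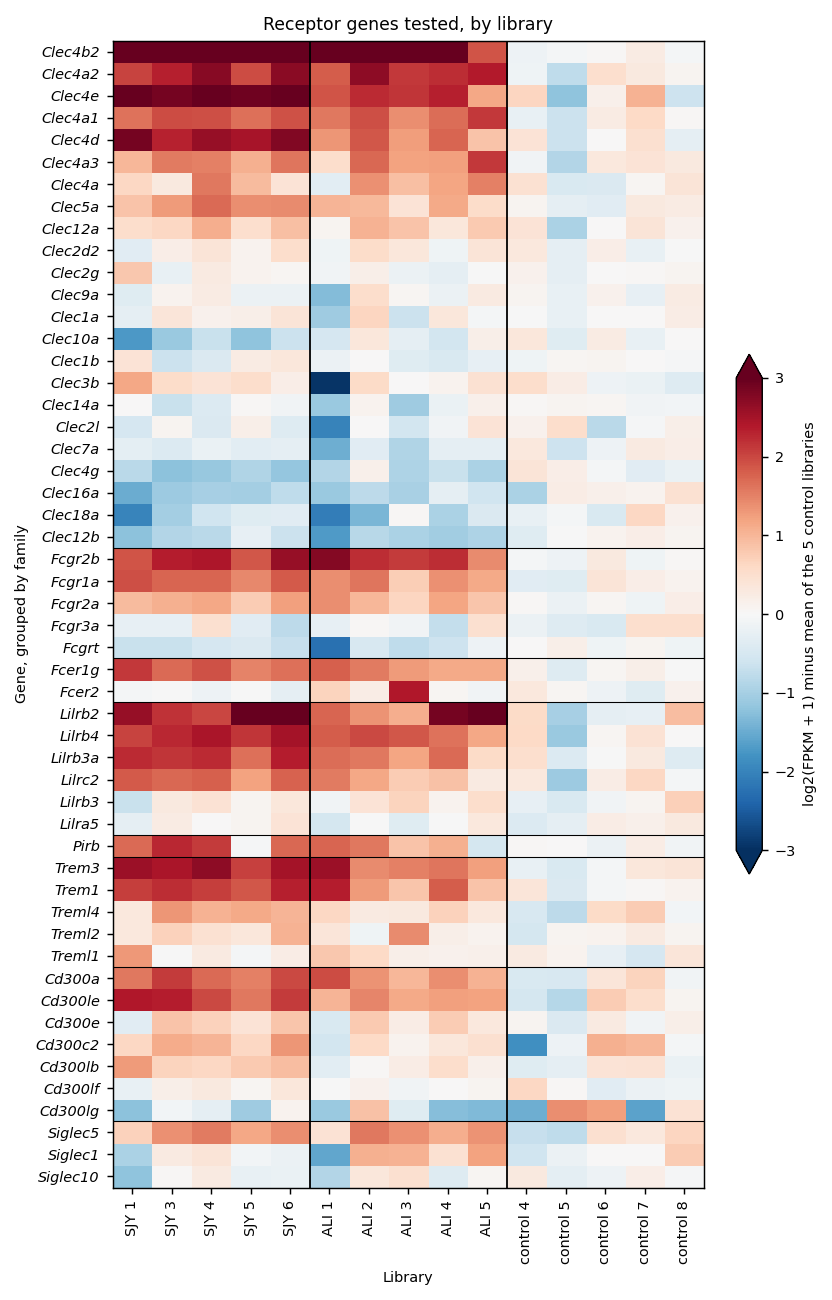
Heat map of the 52 tested receptor genes in 15 libraries, SJY left of ALI and control, coloured by log2(FPKM + 1) minus the mean of the 5 control libraries (colours end at 3 in either direction) and ordered within each family by the ALI against control change. The rows from Clec4b2 to Clec4e, the Fcgr2b, Fcer1g, Lilrb4, Trem1, Trem3 and Cd300a rows are red in all SJY and ALI libraries, while Clec12b is blue in them.

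A run of 7 neighbouring genes on rat chromosome 4 formed the block with the largest rises. In the RefSeq order of build GRCr8 they run Clec4a1, Clec4a3, Clec4a2, Clec4a, Clec4b2, Clec4d and Clec4e. The Clec4a genes belong to the dendritic cell immunoreceptor (DCIR) group, which includes an inhibitory member, and Clec4d (MCL) and Clec4e (Mincle) are activating receptors for microbial glycolipids that signal through Fcer1g. All but Clec4a were called higher in ALI lungs and in SJY lungs. The windows of 300 bases around the starts of the 3 genes at the end of this block are shown beside those of Clec12b and Fcgrt, the called-lower members whose ALI libraries all lay below the control libraries. They were searched for the core motif of PU.1, a transcription factor of myeloid cells.
The sequences are RefSeq's (GRCr8), 5′ to 3′ on the gene's strand, and capitals mark the PU.1 core, GAGGAA or its reverse complement TTCCTC.
Clec4e (chr4:158298418-158298717, minus strand): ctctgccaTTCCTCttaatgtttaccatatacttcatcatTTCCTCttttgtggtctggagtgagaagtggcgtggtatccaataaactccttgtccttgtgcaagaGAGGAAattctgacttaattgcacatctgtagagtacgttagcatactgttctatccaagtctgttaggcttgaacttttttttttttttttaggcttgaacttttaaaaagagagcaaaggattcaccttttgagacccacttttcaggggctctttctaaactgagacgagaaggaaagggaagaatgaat
Clec4d (chr4:158275093-158275392, plus strand): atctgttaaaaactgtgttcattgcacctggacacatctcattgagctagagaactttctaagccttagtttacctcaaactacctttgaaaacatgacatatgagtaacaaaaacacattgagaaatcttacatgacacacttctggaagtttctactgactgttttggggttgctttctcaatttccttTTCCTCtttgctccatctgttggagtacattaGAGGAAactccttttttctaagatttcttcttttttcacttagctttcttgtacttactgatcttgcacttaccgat
Clec4b2 (chr4:158148184-158148483, plus strand): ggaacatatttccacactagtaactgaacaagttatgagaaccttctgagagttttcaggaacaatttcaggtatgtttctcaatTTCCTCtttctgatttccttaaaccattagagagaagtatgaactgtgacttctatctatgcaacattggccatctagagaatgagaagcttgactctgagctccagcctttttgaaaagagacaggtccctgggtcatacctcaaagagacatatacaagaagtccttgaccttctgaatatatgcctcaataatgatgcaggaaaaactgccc
Clec12b (chr4:164524927-164525226, minus strand): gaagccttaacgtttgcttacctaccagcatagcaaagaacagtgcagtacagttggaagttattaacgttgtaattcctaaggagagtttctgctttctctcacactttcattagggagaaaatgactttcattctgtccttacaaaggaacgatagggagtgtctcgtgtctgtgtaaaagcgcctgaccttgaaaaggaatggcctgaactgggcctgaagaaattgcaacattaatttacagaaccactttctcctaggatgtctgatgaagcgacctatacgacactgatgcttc
Fcgrt (chr1:104719977-104720276, minus strand): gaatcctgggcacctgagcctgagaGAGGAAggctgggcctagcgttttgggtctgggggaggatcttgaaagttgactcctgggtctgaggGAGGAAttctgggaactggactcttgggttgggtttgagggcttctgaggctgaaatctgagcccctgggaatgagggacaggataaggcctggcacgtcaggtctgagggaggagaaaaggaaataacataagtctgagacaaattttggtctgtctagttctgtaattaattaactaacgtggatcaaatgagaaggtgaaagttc

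The number of PU.1 cores did not separate the genes that rose from those that fell. In the block, the windows of Clec4e and Clec4a1 held 3 cores, that of Clec4d 2, those of Clec4b2, Clec4a3 and Clec4a 1 each, and that of Clec4a2, which rose, 0. Among the 4 members called lower in ALI lungs, Fcgrt had 2 cores, Clec16a had 1, and Clec12b and Clec4g had 0. Of the 64 genes, 48 had a promoter window in RefSeq by symbol, and 29 of these (60.4%) held at least 1 core, against 27.6% of 33469 rat windows of the same length. Among the 15 members called higher in ALI lungs that had a window, 12 (80.0%) held the core, and 2 of the 4 called lower did. The letters TTGCNNAA, read by C/EBP factors, stood in 12 of the 48 members' windows, against 10.6% of all windows. The AP-1 letters TGANTCA stood in 12.5% against 7.33%, and the NF-kB motif in 2.08% against 4.18%. Of the 15 members called higher, 2 (13.3%) held the C/EBP letters, 2 the AP-1 letters and 1 (6.67%) the NF-kB motif. Both strands of every window listed under a member's symbol were searched, and no match overlapped one of another motif in the same window. At least Treml2 had more than 1 window, because its PU.1 core and AP-1 letters lay at positions that cannot both occur in the same window. A member was counted if any of its windows held the motif, whereas the shares of all windows count each window. The shares are therefore not fully alike. A match of letters describes the window and does not show that a factor binds there.

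Clec4b2, a lectin receptor next to the DCIR genes, had 23.1, 22.2, 19.4, 16.99 and 29.6 FPKM in SJY lungs, 22.5, 11.9, 8.66, 13.5 and 3.39 FPKM in ALI lungs and 0.0669, 0.135, 0.211, 0.404 and 0.140 FPKM in control lungs. It was close to absent in control lungs and present in all libraries after LPS, lowest in ALI 5. The change was 3.26 ± 0.32 (SE; adjusted p = 1.11e-05) in ALI against control lungs and 4.27 ± 0.32 (SE; adjusted p = 4.19e-07) in SJY against control lungs, the largest of any member in both. All fold changes are on the log2(FPKM + 1) scale, which understates the change of low genes such as this one.

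Clec4e, which encodes Mincle, had 86.2, 63.8, 80.1, 65.3 and 94.99 FPKM in SJY lungs, 31.7, 40.8, 37.7, 43.04 and 18.6 FPKM in ALI lungs and 12.7, 2.81, 8.73, 17.1 and 4.73 FPKM in control lungs. All ALI libraries were above all control libraries, and all SJY libraries were above all ALI libraries. It rose by 1.95 ± 0.35 (SE; adjusted p = 0.00154) in ALI lungs and by 3.15 ± 0.35 (SE; adjusted p = 1.27e-05) in SJY lungs against control. Its partner Clec4d had 41.8, 28.1, 34.6, 31.4 and 39.04 FPKM in SJY lungs, 13.5, 20.1, 12.9, 18.4 and 9.62 FPKM in ALI lungs and 6.75, 2.73, 4.88, 7.19 and 3.86 FPKM in control lungs. The 3 groups did not overlap here either, and the rise was 1.41 ± 0.23 (SE; adjusted p = 7.43e-04) in ALI lungs and 2.61 ± 0.23 (SE; adjusted p = 1.27e-06) in SJY lungs.

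Among the DCIR genes, Clec4a2 had 16.1, 19.98, 26.8, 15.3 and 25.998 FPKM in SJY lungs, 13.8, 25.9, 17.2, 18.5 and 20.8 FPKM in ALI lungs and 2.81, 1.47, 4.87, 4.11 and 3.44 FPKM in control lungs. The highest control library was below the lowest library of either LPS group, and the change was 2.25 ± 0.23 (SE; adjusted p = 1.83e-05) in ALI lungs. Clec4a1 had 38.4, 48.3, 47.2, 38.9 and 46.7 FPKM in SJY lungs, 36.9, 47.2, 32.2, 39.2 and 54.04 FPKM in ALI lungs and 9.83, 7.08, 14.2, 18.2 and 11.9 FPKM in control lungs. Its rise was 1.73 ± 0.20 (SE; adjusted p = 4.10e-05) in ALI lungs and 1.82 ± 0.20 (SE; adjusted p = 1.17e-05) in SJY lungs, again with no overlap with control.
Clec4a3, the most abundant of the block, had 71.5, 106, 102, 75.4 and 110.3 FPKM in SJY lungs, 51.5, 119, 82.6, 84.8 and 157 FPKM in ALI lungs and 32.7, 18.7, 44.1, 47.05 and 43.6 FPKM in control lungs. It rose by 1.36 ± 0.28 (SE; adjusted p = 0.00448) in ALI lungs, where library 5 was highest. Clec4a itself ranged over 1.70 to 5.65 FPKM in SJY lungs, 0.770 to 5.36 FPKM in ALI lungs and 0.612 to 2.03 FPKM in control lungs. Its difference of 0.93 ± 0.34 (SE; adjusted p = 0.0657) in ALI against control lungs was not called with all libraries; without ALI 1, its lowest ALI library, the adjusted p was 0.00498, and with median-of-ratios scaling it was 0.0327.

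**Figure D2:**
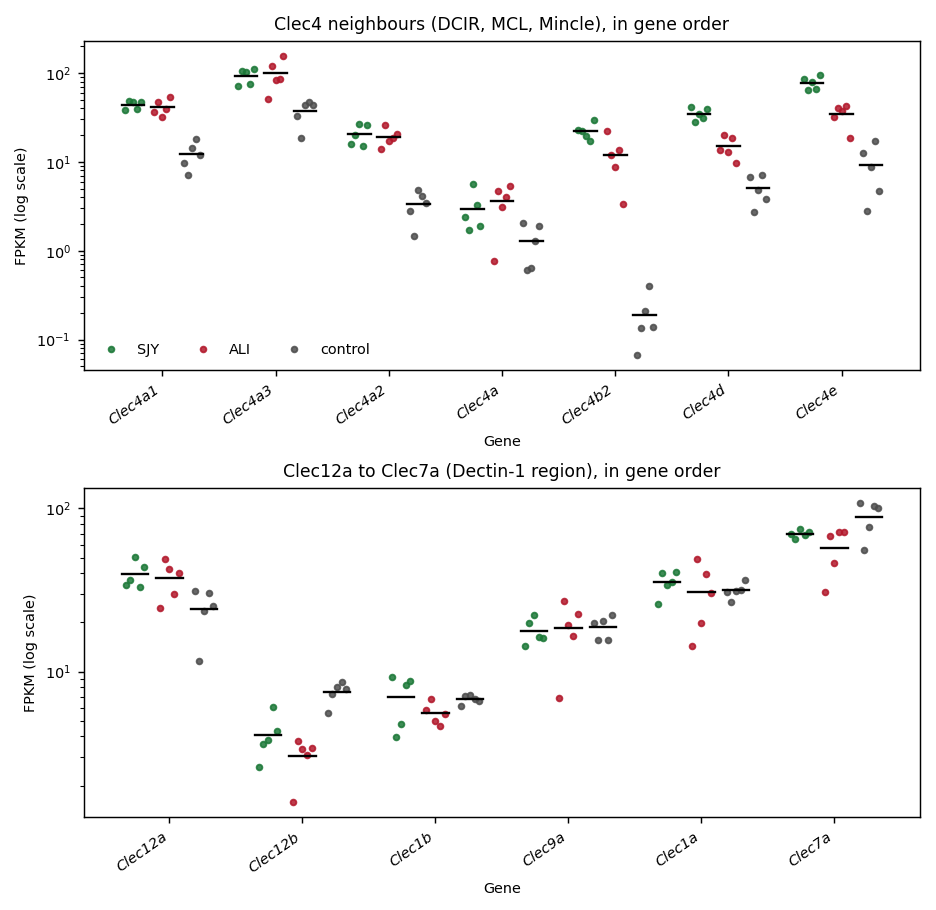
FPKM (log axis) of the lectin genes of 2 blocks in gene order, with 1 point per library (SJY left, ALI middle, control right) and the group mean as a bar. In the upper panel the control points of Clec4b2 lie under 1 FPKM and its SJY and ALI points above 3 FPKM, and in the lower panel the ALI points of Clec12b lie below its control points while the groups of Clec1b, Clec9a and Clec1a overlap.

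A second lectin block, from Clec12a to Clec7a, held few calls. Chtopl1, which is not among the receptor genes, lies between Clec12a and Clec12b in the RefSeq order. Of the block's 6 lectin genes, Clec12b was called lower in both LPS groups and Clec12a was called higher in SJY lungs only, though the difference between SJY and ALI lungs was 0.10 ± 0.24 (SE; adjusted p = 0.91). Clec12b, an inhibitory receptor of myeloid cells, had 2.59, 3.58, 3.82, 6.02 and 4.35 FPKM in SJY lungs, 1.58, 3.73, 3.35, 3.06 and 3.40 FPKM in ALI lungs and 5.53, 7.27, 8.05, 8.59 and 7.86 FPKM in control lungs. All ALI libraries were below all control libraries, and SJY 5 reached into the control range. Its change was -1.09 ± 0.20 (SE; adjusted p = 0.00197) in ALI lungs and -0.76 ± 0.20 (SE; adjusted p = 0.00952) in SJY lungs.
Clec12a, an inhibitory receptor for uric acid crystals in mice, had 33.8, 36.2, 50.2, 33.2 and 43.7 FPKM in SJY lungs, 24.7, 48.9, 42.8, 29.7 and 40.2 FPKM in ALI lungs and 31.1, 11.5, 23.4, 30.3 and 25.2 FPKM in control lungs. Every SJY library was above every control library, with a change of 0.73 ± 0.24 (SE; adjusted p = 0.0305). That call was lost without SJY 4, SJY 6, control 5 or control 6, at an adjusted p of 0.0554 to 0.0759. In ALI lungs the difference of 0.63 ± 0.24 (SE; adjusted p = 0.0815) was not called, but without ALI 1, its lowest ALI library, the adjusted p was 0.0366, and with median-of-ratios scaling it was 0.025.

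Clec7a encodes Dectin-1, the receptor for fungal beta-glucans. It averaged 69.95 ± 3.68 FPKM in SJY lungs, 57.6 ± 18.4 FPKM in ALI lungs and 88.996 ± 22.3 FPKM in control lungs (SD, n = 5 each). Its difference in ALI against control lungs was -0.65 ± 0.22 (SE; adjusted p = 0.0561), past the threshold only when ALI 4, ALI 5 or control 5 was left out (adjusted p of 0.0257 to 0.0391). The remaining genes of the block were not called in any comparison. Clec9a, a receptor of cross-presenting dendritic cells for exposed actin filaments, differed by -0.12 (adjusted p = 0.761) in ALI against control lungs. Clec1a differed by -0.16 (adjusted p = 0.676), and Clec1b, the podoplanin receptor CLEC-2 of platelets, by -0.25 (adjusted p = 0.358).

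Outside these blocks the lectin genes were mixed. Clec5a, which signals through DAP12 and is known from myeloid cells, had 4.31, 6.15, 8.61, 6.72 and 6.87 FPKM in SJY lungs, 4.99, 4.81, 2.95, 5.49 and 3.32 FPKM in ALI lungs and 2.12, 1.44, 1.34, 2.59 and 2.51 FPKM in control lungs. The ALI libraries were all above the control libraries, and it rose by 0.82 ± 0.20 (SE; adjusted p = 0.011) in ALI lungs and by 1.32 ± 0.20 (SE; adjusted p = 2.22e-04) in SJY lungs. Clec16a, whose product acts in endosomes and autophagy rather than as a surface lectin, had 1.46, 2.25, 2.47, 2.44 and 3.12 FPKM in SJY lungs, 2.20, 3.01, 2.55, 4.79 and 3.58 FPKM in ALI lungs and 2.61, 7.08, 6.73, 6.45 and 8.56 FPKM in control lungs. Control 4 was far below the other control libraries, so the groups overlapped. The fall of -0.75 ± 0.24 (SE; adjusted p = 0.0452) in ALI lungs lost its call when any of 11 single libraries was left out (ALI 1, ALI 2, ALI 3, SJY 3, SJY 4, SJY 5, SJY 6, control 5, control 6, control 7 or control 8; adjusted p of 0.0519 to 0.112), whereas the fall of -1.07 ± 0.24 (SE; adjusted p = 0.00427) in SJY lungs kept its call in each of the 15 leave-outs.
Clec4g, a lectin known from liver and lymph node sinus endothelium, stayed under 6 FPKM, at 1.05 to 1.75 FPKM in SJY lungs, 1.49 to 4.39 FPKM in ALI lungs and 2.84 to 5.26 FPKM in control lungs. It was called lower in both LPS groups, at -0.65 (adjusted p = 0.0437) and, in SJY lungs, -1.05 (adjusted p = 0.00206); the ALI call was lost without any 1 of 12 libraries (ALI 1, ALI 3, ALI 4, ALI 5, SJY 3, SJY 4, SJY 5, SJY 6, control 4, control 5, control 6 or control 8), at an adjusted p of 0.0551 to 0.0972.

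The lectin gene with the highest level was Clec2g (Clr-b), known in mice as the ligand of an inhibitory natural killer cell receptor of the Klrb1 family. It had 838, 408, 580.2, 514 and 500.3 FPKM in SJY lungs, 447, 544, 420.3, 397 and 471 FPKM in ALI lungs and 527, 394, 486, 494 and 503 FPKM in control lungs. The groups overlapped, SJY 1 was the highest library, and the ALI against control difference was -0.079 ± 0.16 (SE; adjusted p = 0.754). Klrb1, the listed gene of that receptor family, stayed at or below 0.486 FPKM in every library. The endothelial gene Clec14a averaged 154 ± 30.6 FPKM in SJY lungs, 141 ± 55.99 FPKM in ALI lungs and 177 ± 10.9 FPKM in control lungs (SD, n = 5 each), and Clec3b, which encodes the plasminogen-binding tetranectin, averaged 127 ± 35.2 FPKM in SJY lungs, 84.8 ± 45.2 FPKM in ALI lungs and 85.9 ± 23.1 FPKM in control lungs (SD, n = 5 each). Neither was called in any comparison with all libraries; Clec3b, at 9.94 FPKM in ALI 1, reached an adjusted p of 0.0268 in SJY against control lungs once ALI 1 was left out. Clec18a was not called in ALI lungs at -0.96 (adjusted p = 0.0884) or in SJY lungs at -0.86 (adjusted p = 0.0923); without ALI 3 the ALI value, and without ALI 1 the SJY value, passed with an adjusted p of 0.0401 in each case. The differences of Clec2d2 at 0.20 (adjusted p = 0.466) and of Clec2l at -0.45 (adjusted p = 0.392) in ALI against control lungs were not called.

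The Fc receptors, which bind the constant part of antibodies, split between the surface receptors for IgG, most of which rose, and the recycling receptor, which did not. Of the 7 tested Fcgr and Fcer genes, 4 were higher and 1 was lower in ALI lungs, and 4 were higher and none was lower in SJY lungs. Of all tested genes, 8.02% were higher and 9.56% lower in ALI lungs, and 14.6% and 18.1% in SJY lungs. Fcgr2b, the inhibitory receptor for IgG, had 37.5, 52.4, 54.9, 36.7 and 62.5 FPKM in SJY lungs, 69.3, 46.9, 43.8, 47.4 and 26.7 FPKM in ALI lungs and 9.06, 8.37, 11.8, 8.50 and 9.64 FPKM in control lungs. Both LPS groups were above all control libraries, which were tight, and the rise was 2.14 ± 0.21 (SE; adjusted p = 1.10e-05) in ALI lungs and 2.23 ± 0.21 (SE; adjusted p = 2.84e-06) in SJY lungs. Fcgr1a, the high-affinity IgG receptor, had 61.6, 54.2, 53.9, 43.8 and 58.2 FPKM in SJY lungs, 42.6, 49.02, 26.7, 41.5 and 34.99 FPKM in ALI lungs and 12.03, 11.8, 20.7, 17.9 and 16.8 FPKM in control lungs. It rose by 1.25 ± 0.18 (SE; adjusted p = 2.42e-04) in ALI lungs and by 1.74 ± 0.18 (SE; adjusted p = 5.33e-06) in SJY lungs, with no overlap with control in either.
Fcgr2a, which RefSeq also lists under the name of the activating receptor Fcgr3, had 19.1, 20.9, 22.4, 16.8 and 23.4 FPKM in SJY lungs, 26.3, 19.8, 15.4, 22.7 and 17.6 FPKM in ALI lungs and 9.79, 8.19, 9.93, 8.52 and 11.1 FPKM in control lungs. It rose by 1.01 ± 0.14 (SE; adjusted p = 2.66e-04) in ALI lungs and by 1.03 ± 0.14 (SE; adjusted p = 1.21e-04) in SJY lungs, and neither group overlapped with control. Its neighbour Fcgr3a, which RefSeq also lists as Fcgr4, lay at 21.5 to 52.8 FPKM in SJY lungs, 22.7 to 53.05 FPKM in ALI lungs and 27.4 to 54.01 FPKM in control lungs. The 3 groups overlapped widely there, and the differences from control were -0.11 (adjusted p = 0.797) in ALI lungs and -0.23 (adjusted p = 0.525) in SJY lungs. Fcgr2b, Fcgr3a and Fcgr2a lie side by side and resemble one another, so that their shares of reads are uncertain. RefSeq also lists Fcgr3a among the other names of Fcgr2a, so which gene either symbol stands for here is uncertain too.

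Fcer1g, the gamma chain through which many of the activating receptors signal, had the highest mean over the 15 libraries of any member. It had 1093, 818, 950.2, 706 and 794 FPKM in SJY lungs, 863, 739, 605, 551 and 550.4 FPKM in ALI lungs and 279, 191, 259, 285 and 249 FPKM in control lungs. All libraries of both LPS groups exceeded all control libraries, and it rose by 1.38 ± 0.16 (SE; adjusted p = 4.55e-05) in ALI lungs and by 1.78 ± 0.16 (SE; adjusted p = 1.73e-06) in SJY lungs. Fcgrt, the neonatal Fc receptor that recycles IgG and albumin, had 61.8, 62.2, 69.6, 73.6 and 61.1 FPKM in SJY lungs, 20.2, 70.9, 57.9, 64.4 and 89.4 FPKM in ALI lungs and 99.1, 113, 89.8, 105 and 90.4 FPKM in control lungs. All control libraries were above the libraries of both LPS groups, and ALI 1 was lowest by far. The fall of -0.85 ± 0.27 (SE; adjusted p = 0.0437) in ALI lungs was called, but without ALI 1 it was -0.50, and without ALI 3, SJY 3, SJY 4, SJY 5, SJY 6, control 4, control 5, control 6, control 7 or control 8 the call was lost (adjusted p of 0.0549 to 0.0937). In SJY lungs the difference of -0.59 ± 0.27 (SE; adjusted p = 0.11) was not called with all libraries and was called without ALI 1 (adjusted p of 8.92e-04). Fcer2, the low-affinity IgE receptor CD23 of B cells, had 11.3 FPKM in ALI 3 and 0.830 to 2.72 FPKM in the other 14 libraries, and its difference in ALI lungs, 0.64 (adjusted p = 0.201), was not called.

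**Figure D3:**
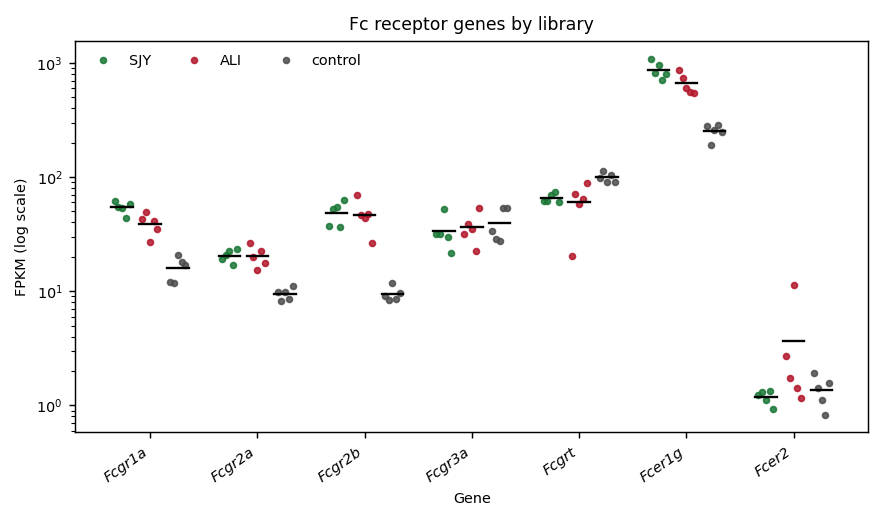
FPKM (log axis) of the 7 tested Fc receptor genes, with 1 point per library (SJY left, ALI middle, control right) and the group mean as a bar. Fcgr1a, Fcgr2a, Fcgr2b and Fcer1g lie above control in all SJY and ALI libraries, the Fcgr3a points of the 3 groups overlap, and Fcgrt lies below control with ALI 1 at 20.2 FPKM.

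The leukocyte immunoglobulin-like receptors (Lilr and Pir) bind MHC class I and related ligands, and the B members are inhibitory. Of the 7 tested, 4 were called higher in ALI lungs and 5 in SJY lungs, and none was called lower. Among all tested genes 8.02% were called higher in ALI lungs and 14.6% in SJY lungs, and 9.56% and 18.1% lower. Lilrb4 (gp49B) was the most abundant and had 386, 449, 516, 415 and 534 FPKM in SJY lungs, 332, 372, 345, 291 and 212 FPKM in ALI lungs and 141, 42.95, 97.5, 127 and 94.98 FPKM in control lungs. The 3 groups did not overlap, and the lowest SJY and the highest ALI library lay close together. It rose by 1.69 ± 0.25 (SE; adjusted p = 4.44e-04) in ALI lungs and by 2.28 ± 0.25 (SE; adjusted p = 1.57e-05) in SJY lungs. Lilrb3a had 11.8, 11.1, 11.8, 7.59 and 12.9 FPKM in SJY lungs, 7.75, 7.17, 5.14, 7.83 and 3.03 FPKM in ALI lungs and 2.89, 1.04, 1.71, 2.32 and 1.09 FPKM in control lungs. It rose by 1.34 ± 0.24 (SE; adjusted p = 0.00169) in ALI lungs and by 2.13 ± 0.24 (SE; adjusted p = 1.73e-05) in SJY lungs, with ALI 5 the lowest of the LPS libraries.

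RefSeq lists Lilrb3 and Pirb among the other names of Lilrb2, and Lilrb3a among those of Pirb. Which gene each of these symbols stands for here is therefore uncertain. Lilrb2 and Pirb varied between libraries of the same group. Lilrb2 had 23.3, 16.8, 14.9, 67.3 and 56.9 FPKM in SJY lungs, 12.3, 9.14, 7.51, 27.8 and 31.1 FPKM in ALI lungs and 4.88, 0.988, 2.31, 2.37 and 6.59 FPKM in control lungs. SJY 5, SJY 6, ALI 4 and ALI 5 stood above the other libraries of their groups, and all LPS libraries stood above control. It rose by 2.01 ± 0.49 (SE; adjusted p = 0.0119) in ALI lungs and by 2.95 ± 0.49 (SE; adjusted p = 5.58e-04) in SJY lungs. Pirb, in mice an inhibitory receptor for MHC class I, had 3.86, 6.13, 5.37, 0.469 and 3.92 FPKM in SJY lungs, 4.02, 3.49, 1.69, 2.13 and 0.0329 FPKM in ALI lungs and 0.530, 0.501, 0.327, 0.752 and 0.391 FPKM in control lungs. SJY 5 and ALI 5, both high in Lilrb2, were the lowest of their groups. The rise of 1.55 ± 0.42 (SE; adjusted p = 0.012) in SJY lungs was called, whereas the 0.94 ± 0.42 (SE; adjusted p = 0.127) in ALI lungs was not, and became called without ALI 5 (adjusted p = 0.021).
Lilrc2 had 25.7, 23.8, 24.996, 16.2 and 24.5 FPKM in SJY lungs, 21.1, 15.8, 11.8, 12.8 and 7.997 FPKM in ALI lungs and 8.41, 2.51, 7.80, 10.5 and 6.17 FPKM in control lungs. It rose by 1.66 ± 0.29 (SE; adjusted p = 7.09e-04) in SJY lungs, all above control. The rise of 0.92 ± 0.29 (SE; adjusted p = 0.0365) in ALI lungs, where the groups overlapped, lost its call without ALI 1, ALI 2, ALI 3, ALI 4, control 5, control 6 or control 8 (adjusted p of 0.0506 to 0.0767). Lilrb3 at 0.32 (adjusted p = 0.363) and Lilra5 at -0.12 (adjusted p = 0.667) in ALI lungs were not called. The family holds close copies, and how reads were shared among them is not known.

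Both tested Trem genes, which encode activating receptors that signal through DAP12, rose after LPS. Trem1, an amplifier of neutrophil and monocyte responses, had 48.2, 53.6, 47.8, 41.5 and 58.1 FPKM in SJY lungs, 59.1, 27.1, 19.7, 39.8 and 20.3 FPKM in ALI lungs and 14.1, 7.67, 10.2, 10.9 and 11.5 FPKM in control lungs. It rose by 1.43 ± 0.25 (SE; adjusted p = 0.00136) in ALI lungs and by 2.11 ± 0.25 (SE; adjusted p = 2.40e-05) in SJY lungs, and both groups were above all control libraries. Trem3, its neighbour and in mice also an activating receptor, had 48.9, 44.9, 52.6, 33.4 and 46.4 FPKM in SJY lungs, 48.7, 21.5, 22.9, 24.5 and 18.5 FPKM in ALI lungs and 6.23, 5.12, 7.09, 9.53 and 9.89 FPKM in control lungs. ALI 1 stood at the level of the SJY libraries and apart from the other ALI libraries, and the rise was 1.67 ± 0.23 (SE; adjusted p = 2.05e-04) in ALI lungs and 2.45 ± 0.23 (SE; adjusted p = 2.84e-06) in SJY lungs.
Of the 3 Treml genes, Treml4 was called in SJY lungs at 0.97 (adjusted p = 0.0137) and not in ALI lungs at 0.44 (adjusted p = 0.255); the SJY against ALI difference was 0.53 (adjusted p = 0.467). Treml2 was not called in SJY lungs at 0.57 (adjusted p = 0.0927), and without ALI 3, where it had 21.8 FPKM, the adjusted p was 0.024. Treml1, the platelet receptor TLT-1, differed by 0.37 (adjusted p = 0.294) in ALI lungs.

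In the Cd300 family of lipid-sensing paired receptors, 2 of 7 genes were called higher in ALI lungs and 3 in SJY lungs. The shares of all tested genes called higher were 8.02% and 14.6%. Cd300a, an inhibitory receptor for phosphatidylserine and phosphatidylethanolamine, had 27.7, 39.7, 30.2, 26.4 and 36.4 FPKM in SJY lungs, 36.2, 23.3, 17.9, 24.1 and 18.8 FPKM in ALI lungs and 5.92, 5.79, 11.3, 14.2 and 7.94 FPKM in control lungs. It rose by 1.35 ± 0.23 (SE; adjusted p = 0.00132) in ALI lungs and by 1.78 ± 0.23 (SE; adjusted p = 7.53e-05) in SJY lungs, with no overlap with control. Cd300le had 169, 164, 127, 96.6 and 138 FPKM in SJY lungs, 64.4, 88.3, 70.6, 74.99 and 73.5 FPKM in ALI lungs and 21.4, 16.8, 53.9, 45.9 and 33.5 FPKM in control lungs. The 3 groups did not overlap, and it rose by 1.21 ± 0.26 (SE; adjusted p = 0.00534) in ALI lungs and by 2.08 ± 0.26 (SE; adjusted p = 4.20e-05) in SJY lungs.
Cd300lb, an activating member, rose by 0.86 ± 0.21 (SE; adjusted p = 0.00603) in SJY lungs and differed by 0.12 (adjusted p = 0.694) in ALI lungs. Cd300lf, an inhibitory member, had a mean between 16.8 and 18.4 FPKM in every group and differed by 0.013 (adjusted p = 0.958) in ALI lungs. Cd300c2 was not called in SJY lungs at 0.95 (adjusted p = 0.0955) and was called without control 6 (adjusted p = 0.0445); Cd300e was not called there at 0.49 (adjusted p = 0.168) and was called without SJY 1 (adjusted p = 0.0424). Cd300lg, known from endothelium, ranged over 1.79 to 6.06 FPKM in SJY lungs, 1.59 to 10.9 FPKM in ALI lungs and 1.14 to 16.2 FPKM in control lungs and was not called in any comparison.

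The Siglecs bind sialic acids, and most carry inhibitory motifs. Siglec5 was the only tested member of the 3 that was called. It had 7.48, 12.6, 14.5, 10.9 and 12.9 FPKM in SJY lungs, 6.07, 14.7, 12.7, 10.3 and 12.5 FPKM in ALI lungs and 2.29, 2.10, 6.39, 5.59 and 7.26 FPKM in control lungs. The rise was 1.17 ± 0.29 (SE; adjusted p = 0.014) in ALI lungs, where ALI 1 overlapped the control range, and 1.23 ± 0.29 (SE; adjusted p = 0.0056) in SJY lungs, which did not overlap with control. Siglec10, its neighbour and the family member with the highest mean, had 10.1, 25.1, 29.97, 20.9 and 21.3 FPKM in SJY lungs, 12.8, 31.5, 34.6, 18.5 and 25.5 FPKM in ALI lungs and 30.2, 19.8, 22.02, 28.4 and 23.7 FPKM in control lungs. The groups overlapped and the ALI against control difference was -0.08 ± 0.28 (SE; adjusted p = 0.857). Siglec1, the macrophage adhesion molecule sialoadhesin, lay at 0.424 to 8.68 FPKM in ALI lungs and 1.80 to 6.16 FPKM in control lungs. Its lowest ALI value was in library 1, and its difference of 0.44 (adjusted p = 0.496) became called without that library (adjusted p = 0.0311).

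**Figure D4:**
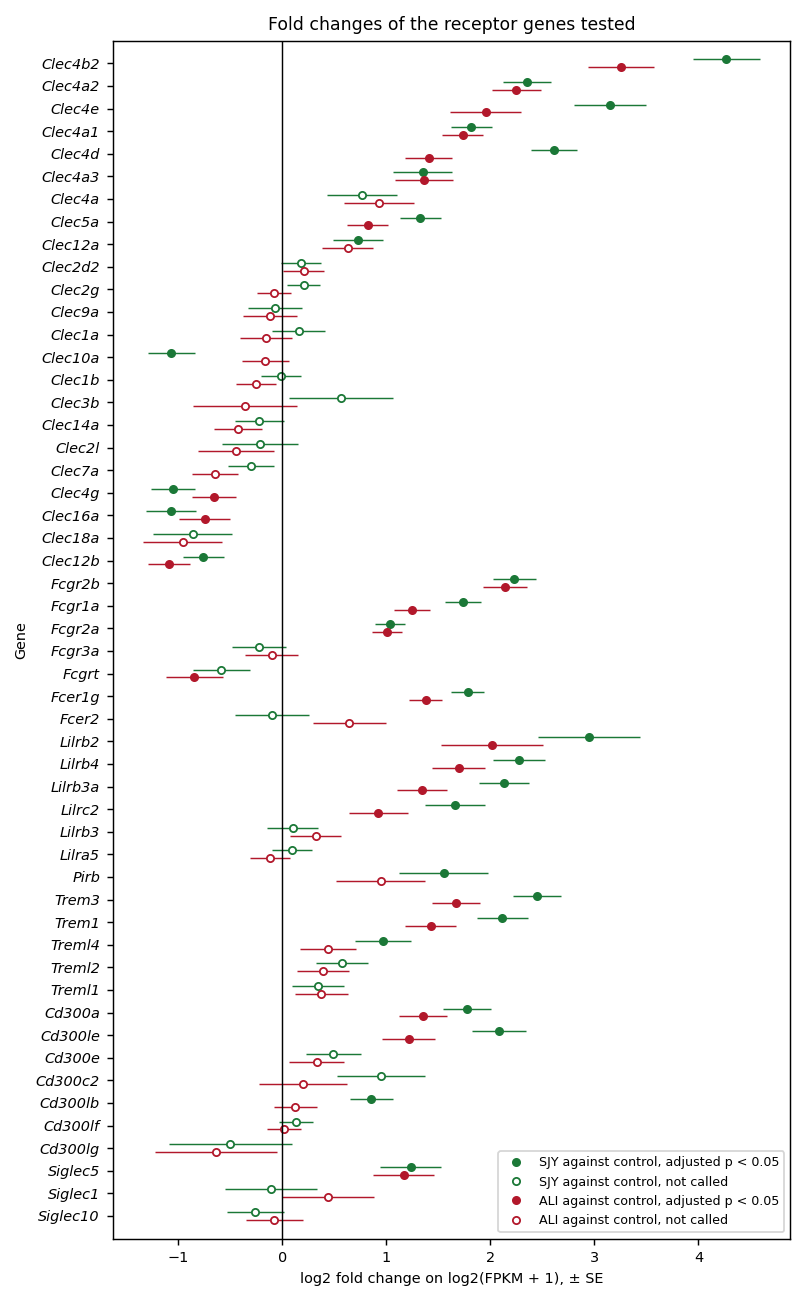
Log2 fold changes on the log2(FPKM + 1) scale with SE bars for the 52 tested genes, SJY against control above ALI against control in each row, filled where the adjusted p was under 0.05. The filled points are mostly right of 0, up to 4.27 for Clec4b2, and Clec12b, Clec16a and Clec4g are filled left of 0 in both comparisons.

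The other 12 members were not tested because fewer than 5 libraries held them at 1 FPKM or above. Their highest library values were 2.66 FPKM for Clec2d, 1.59 for Clec11a, 0.646 for Siglec15, 0.803 for Clec4m, 0.802 for Fcer1a, the alpha chain of the IgE receptor of mast cells, and 0.736 for Clec2e. The other 6 were lower still, at 0.375 FPKM for Siglecl1, 0.357 for Siglech, a marker of plasmacytoid dendritic cells in mice, 0.341 for Clec4f, the Kupffer cell lectin, 0.268 for Clec4n, 0.232 for Clec2dl1 and 0.0339 for Clec3a. Clec4n is the symbol of Dectin-2 in mice, a receptor for fungal mannans that belongs with Clec4d and Clec4e; it was listed at 0 in 12 of the 15 libraries.

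The machinery that the activating receptors share rose in part. Of 20 adaptors and proximal kinases, 8 were called higher and none lower in ALI lungs (median log2 change 0.42). Over all tested genes the shares were 8.02% higher and 9.56% lower. Fgr, a Src-family kinase of myeloid cells, had the largest rise at 1.36 ± 0.18 (SE; adjusted p = 1.89e-04), with 48.96 to 102 FPKM in ALI lungs and 19.9 to 33.1 FPKM in control lungs. Tyrobp, which encodes DAP12, rose by 1.28 ± 0.17 (SE; adjusted p = 1.33e-04), and Btk rose by 0.95 ± 0.17 (SE; adjusted p = 0.00152). Syk rose by 0.62 ± 0.18 (SE; adjusted p = 0.0306); its ALI and control ranges were 15.4 to 38.4 and 12.9 to 17.1 FPKM. The T cell signalling genes Lat and Zap70 and the DAP10 gene Hcst were not called. In SJY against control lungs the same list gave 8 higher and 1 lower, the lower one being Grap2 at -1.07 (adjusted p = 0.00875). There, 14.6% of all tested genes were higher and 18.1% lower.

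Downstream, Card9, the adaptor that couples Syk-linked lectins to NF-kB, rose by 0.56 ± 0.12 (SE; adjusted p = 0.00682) and Bcl10 by 0.38 ± 0.11 (SE; adjusted p = 0.027) in ALI lungs. They were 2 of the 7 tested genes of that complex, with none called lower, and the median log2 change of the 7 was -0.33. In SJY against control lungs 2 of the 7 were called higher and 2 lower, Traf6 among the lower at -0.65 (adjusted p = 0.0112). Of all tested genes, 8.02% were higher and 9.56% lower in ALI lungs, and 14.6% and 18.1% in SJY lungs. Of 9 phosphatases and related proteins that bind inhibitory motifs, Ptpn6 (SHP-1) rose by 0.87 ± 0.10 (SE; adjusted p = 3.50e-05) and was the only one called in ALI lungs. In SJY lungs Ptpn6 rose by 1.01 (adjusted p = 3.25e-06) and Dok2 by 0.90 (adjusted p = 0.00118), and Ptpn11 (SHP-2) and Cbl fell by 0.80 and 1.13 on the log2 scale (adjusted p = 0.00296 and 0.00651).

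Of 17 tested genes listed as ligands, 5 were called higher and 4 lower in ALI lungs (median -0.06). Over all tested genes, 8.02% were higher and 9.56% lower. The list holds some genes, such as Tsc22d3 and Npc2, that are not established ligands. Pglyrp1, whose product binds TREM-1 in humans, rose by 1.59 ± 0.34 (SE; adjusted p = 0.00496), at 35.8 to 54.05 FPKM in SJY lungs, 11.4 to 59.9 FPKM in ALI lungs and 4.23 to 8.52 FPKM in control lungs. B2m, the shared chain of the MHC class I ligands of the Lilr family, rose by 0.73 ± 0.15 (SE; adjusted p = 0.00395). Cd177, a neutrophil surface protein that is also in the neutrophil list, rose by 3.27 ± 0.37 (SE; adjusted p = 3.85e-05). Pdpn, the podoplanin ligand of CLEC-2 and a product of alveolar type I cells, fell by 1.26 on the log2 scale (adjusted p = 0.00403), at 107 to 173 FPKM in SJY lungs, 61.4 to 208 FPKM in ALI lungs and 247 to 362 FPKM in control lungs; 7 of the 11 lung epithelial markers were also called lower. Sap130, a nuclear protein bound by Mincle in mice, differed by -0.064 (adjusted p = 0.783).

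Of 17 other tested paired receptors outside the named families, 4 were called higher in ALI lungs and none lower. Among all tested genes 8.02% were called higher and 9.56% lower there. Oscar, a collagen receptor that signals through Fcer1g, rose by 2.32 ± 0.32 (SE; adjusted p = 2.11e-04) in ALI lungs and by 3.34 ± 0.32 (SE; adjusted p = 3.31e-06) in SJY lungs. Cd33, a Siglec by structure, rose by 1.59 ± 0.17 (SE; adjusted p = 2.65e-05) and Cd200r1, an inhibitory receptor of myeloid cells, by 1.23 ± 0.25 (SE; adjusted p = 0.0036). Among the marker lists set beside these results, 16 of 17 tested neutrophil markers and 13 of 15 monocyte and macrophage markers were called higher in ALI lungs. None of 11 dendritic cell, 12 natural killer and T cell, 10 B cell or 4 platelet markers was called there by limma; at an unadjusted p under 0.05, 1 dendritic cell marker and 1 natural killer and T cell marker were higher and 1 B cell marker was lower, where 13.9% of all tested genes were higher and 21.2% lower at that threshold. In the alveolar macrophage list 2 of 10 were higher and 1 was lower, and in the mast cell, basophil and eosinophil list 1 of 5 was lower. In the endothelial list 1 of 8 was higher and 1 lower.

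The herbal formula was compared with LPS alone in SJY against ALI lungs. None of the 52 members was called by limma, with or without its trend and robust settings. Of all tested genes, 0.00743% (1 of 13457) was called with these settings and 0 without them. At an unadjusted p under 0.05, 13 members were higher and 1 was lower in SJY lungs, where 6.62% of all tested genes were higher and 5.17% lower. The libraries of the groups did not overlap for 6 members that were higher in SJY lungs and 1 that was lower, where 2.24% of all tested genes were apart in the higher direction and 0.988% in the lower. The median log2 difference was 0.22 over the members and 0.03 over all tested genes. Of 17 tested neutrophil markers, 10 were higher and 1 was lower in SJY lungs at an unadjusted p under 0.05, and none was called by limma. The sum of the 20 listed was 8507 to 15034 FPKM in SJY lungs and 2295 to 23363 FPKM in ALI lungs, or up to 7419 FPKM without ALI 1. The part of these markers in the receptor differences was not tested.

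Of the 7 members with separate groups, 4 are described above. Clec4d was higher in SJY than in ALI lungs by 1.21 ± 0.23 (SE; adjusted p = 0.105), Clec4e by 1.20 ± 0.35 (SE; adjusted p = 0.234), Cd300le by 0.87 ± 0.26 (SE; adjusted p = 0.234) and Lilrb4 by 0.58 ± 0.25 (SE; adjusted p = 0.394). The values of the other 3 are given because they were seen to be apart. Cd300c2 had 14.6, 20.95, 19.6, 14.5 and 24.4 FPKM in SJY lungs and 5.87, 14.3, 9.85, 11.8 and 13.2 FPKM in ALI lungs, but its control libraries ran from 1.83 to 19.98 FPKM, and the difference was 0.75 ± 0.42 (SE; adjusted p = 0.511). Cd300lb had 4.85, 2.89, 2.73, 3.16 and 3.64 FPKM in SJY lungs and 0.938, 1.48, 1.82, 2.53 and 1.71 FPKM in ALI lungs, a difference of 0.73 ± 0.21 (SE; adjusted p = 0.223).
Clec10a, the galactose-binding lectin MGL of macrophages and dendritic cells, was the 1 member that was lower. It had 5.71, 9.21, 12.8, 8.58 and 13.1 FPKM in SJY lungs, 14.4, 26.9, 17.1, 14.1 and 24.02 FPKM in ALI lungs and 26.8, 16.02, 25.1, 17.9 and 21.2 FPKM in control lungs. The ALI libraries overlapped with control, all SJY libraries lay below all others, and the difference was -0.90 ± 0.23 (SE; adjusted p = 0.178) in SJY against ALI lungs and -1.07 ± 0.23 (SE; adjusted p = 0.00293) in SJY against control lungs.

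These comparisons depended on ALI 1, the library with the high mitochondrial share. It also had the highest sum of neutrophil markers, at 23363 FPKM where the other ALI libraries reached up to 7419 FPKM. The part of either in these calls was not tested. When ALI 1 was left out, 4 members were called higher and 1 lower in SJY than in ALI lungs, where 0.884% of all tested genes were higher and 0.461% lower. The 4 were Trem3 at an adjusted p of 0.0131, Clec4d at 0.0272, Trem1 at 0.0321 and Clec4b2 at 0.0353, and the lower one was Clec10a at 0.0466. With all libraries their differences were 0.78 (adjusted p = 0.234), 1.21 (adjusted p = 0.105), 0.69 (adjusted p = 0.311), 1.01 (adjusted p = 0.255) and -0.90 (adjusted p = 0.178) in the same order. Several members that had risen after LPS had differences near 0 in this comparison, with 0.082 ± 0.20 (SE; adjusted p = 0.913) for Clec4a1, -0.013 ± 0.28 (SE; adjusted p = 0.994) for Clec4a3, 0.089 ± 0.21 (SE; adjusted p = 0.91) for Fcgr2b and 0.026 ± 0.14 (SE; adjusted p = 0.97) for Fcgr2a. None of the 20 adaptors and kinases, 17 listed ligands or 17 other paired receptors was called by limma in SJY against ALI lungs. At an unadjusted p under 0.05, 2, 5 and 2 of these were higher and 0, 1 and 1 were lower. Of all tested genes, 6.62% were higher and 5.17% lower at that threshold.

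**Figure D5:**
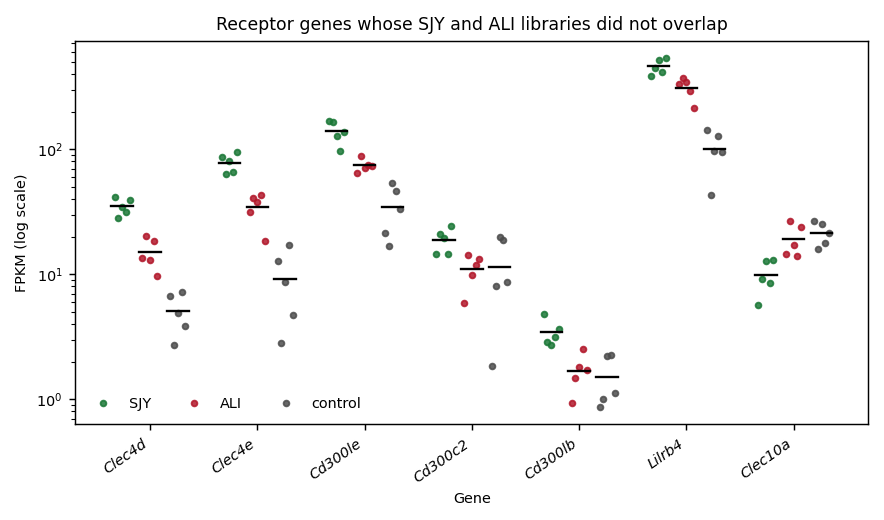
FPKM (log axis) of the 7 receptor genes whose SJY and ALI libraries did not overlap, with 1 point per library (SJY left, ALI middle, control right) and the group mean as a bar. For Clec4d, Clec4e, Cd300le and Lilrb4 the control points lie lowest, while for Clec10a the SJY points lie lowest and the control points among the ALI points.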

How the data were processed

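RNA of rat lung was sequenced in 15 libraries; per the labels' protocols it was extracted with TRIzol and made into libraries with a NEBNext Ultra RNA kit. Trimming, alignment and assembly tools named in the submitters' processing notes are cutadapt, HISAT2 and StringTie, and the build named there is Rnor_6.0; versions and strandedness are not given in the sources used here. The authors deposited a table of FPKM, as its header states, with a column for each library. Read counts and therefore depth cannot be had from it, which leaves no interval for counting error, and a 0 may stand for an estimate that failed.

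Values were turned into log2(FPKM + 1) and a gene entered the test if 5 or more of the 15 libraries held it at 1 FPKM or above. limma 3.58.1 in R 4.3.3 (lmFit, eBayes with trend and robust settings) fitted the 3 groups together over all 13457 genes kept, two-sided, with Benjamini-Hochberg adjustment over all of them; a gene was called under 0.05. It was tested on simulated data first. SDs are over the FPKM of 5 libraries, and SEs are limma's. Libraries are numbered as in the labels (ALI 1 to 5, SJY 1 and 3 to 6, control 4 to 8). Values are given in that order.

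Values in every library were given for called members with a group mean of at least 5 FPKM and for the highest member of each family, up to 25 by size of the ALI change; Clec2g, Siglec10, Clec10a, Cd300c2 and Cd300lb were added to these after their values were seen. The members and gene lists were chosen with earlier results of these data known. Genes with close copies (Lilr and Pir, Fcgr, Clec4a, Clec2d, Cd300) are uncertain. By symbol, 62 of 64 members matched a RefSeq gene and 48 a promoter window of build GRCr8, used for names, gene order and windows only. Same-numbered libraries did not deviate together in every pair (correlations of -0.39 to 0.30), so numbers were not treated as pairs. The alternatives tried were: scaling by median of ratios; plain limma settings; 0.1 as pseudocount; all genes with no minimum; genes averaging 5 FPKM or more; separate fits per pair of groups; a replicate block; and leaving out each library.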

Additional observations from a re-analysis of the deposited data

Results flagged for a closer look

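In 7 of 156 sets of 5 libraries (52 members in 3 groups), 1 library lay far from the other 4 by Dixon's criterion, which chance gives in about 1 of 20 such sets. Of the 7, 2 were in SJY lungs, 5 in ALI lungs and 0 in control lungs. Trem3 had 48.7 FPKM in ALI 1 and 18.5 to 24.5 FPKM in the other ALI libraries, and without ALI 1 it was called higher in SJY than in ALI lungs. Cd300lg had 10.9 FPKM in ALI 2 against 1.59 to 4.12 FPKM in the others, and Clec4g had 4.39 FPKM in ALI 2 against 1.49 to 2.05 FPKM. In ALI 3, Fcer2 had 11.3 FPKM against 1.16 to 2.72 FPKM in the others, and Treml2 had 21.8 FPKM against 6.77 to 9.90 FPKM. The sum of 9 B cell markers without Jchain was also highest in ALI 3, at 363 FPKM against 41.0 to 104 FPKM in the other 14 libraries, and its part in these values was not tested. Treml1 had 4.33 FPKM in SJY 1 against 1.10 to 1.62 FPKM in the other SJY libraries. Lilrc2 was low in SJY 5, at 16.2 FPKM against 23.8 to 25.7 FPKM.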

How the results depend on the processing

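The labels' numbers 4 and 5 are shared by ALI and control libraries, so a fit with the replicate block held 4 libraries in that comparison; it called 0 members in ALI against control lungs and 0 of all 13457 genes. The same libraries with no block, a fit added after the data were seen, called 7 members, all higher, and 0.386% of all genes higher and 0.119% lower. In SJY against control lungs, where 3 numbers are shared, the block called 28 members (25 higher, 3 lower), where 11.8% of all genes were higher and 13.1% lower. Of the 28 called with all libraries it kept 24, losing Clec12b, Lilrb2, Clec16a and Pirb and gaining Clec4a, Treml2, Fcgrt and Cd300e. The same libraries without the block called 25, where 9.34% of all genes were higher and 8.82% lower. In SJY against ALI lungs both called 0.

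Leaving out each library in turn gave 20 to 25 called members in ALI against control lungs. Of all tested genes, 6.12% to 9.3% were then higher and 5.33% to 12.9% lower. In SJY against control lungs it gave 27 to 32, where 12% to 17.8% of all genes were higher and 12.7% to 26.5% lower. The 32 and the top of both ranges of shares came without ALI 1. In SJY against ALI lungs 0 to 5 were called. The 5 came only without ALI 1, where 0.884% of all genes were higher and 0.461% lower. Median-of-ratios scaling moved the median log2 change of all genes from -0.12 to 0.0014 in ALI against control lungs and called 22 members higher and 3 lower, where 11% of all genes were higher and 9.34% lower. In SJY against control lungs it called 27 members higher and 4 lower, where 17.8% of all genes were higher and 17% lower. Without the minimum of 1 FPKM, and in fits of only the 2 groups, 4 of the 24 members called in ALI against control lungs lost their call each time. Fcgrt, Clec4g and Clec16a were among them, which left 1 member lower. Of all genes, 6.61% were lower without the minimum and 4.53% in the fit of the 2 groups. With 0.1 as pseudocount 2 members were lower, where 7.88% of all genes were. Among genes averaging 5 FPKM or more 1 member, Fcgrt, was lower, where 9.07% of all such genes were. Clec12b, Clec16a and Clec4g averaged less than that and were not tested there. All 20 called members that were tested kept their call. No called member changed sign under the alternatives run. Depth is unknown for FPKM, so differences of members near 1 FPKM, and of those with no call, could not be judged by counting error.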
